A study of Homo sapiens with 6 samples.

Results

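The ubiquitin-conjugating enzymes, or E2 enzymes, encoded by the UBE2 genes were followed in HUDEP-2 cells after depletion of menin. The genes were taken from the deposited tables by name: every row called UBE2 followed by a single letter and at most 1 digit, plus UBE2QL1 and UBE2NL. The rule found 38 of 62754 gene rows, and it used no measured value. Of the 38, 32 were tested and 6 were too low to test. HUDEP-2 cells are an established human line of immortalised red cell precursors whose hemoglobin is mostly of the adult kind. Cells carried a lentiviral shRNA against MEN1 (named MEN1sh2 and labelled as MEN1 knockdown, n = 3) or a control shRNA (labelled as WT, n = 3), and RNA was taken at 72 h. Both groups grew in serum-free medium with dexamethasone (1e-06 M), doxycycline (1 µg per ml), EPO (3 units per ml) and SCF (50 ng per ml), and both were selected with puromycin at 2 µg per ml for 48 h from 24 h after infection. The series addresses how the MLL1 histone methyltransferase complex, which contains menin, takes part in the repression of fetal hemoglobin. The labels name 1 cell line and 1 MEN1 hairpin, so effects of lost menin and effects of this hairpin on other transcripts cannot be told apart. Replicates are labelled as biological, and nothing more says how the cultures were kept apart, so p-values measure only the spread between these libraries.

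Ubiquitin is passed along a relay. An E1 enzyme activates it, an E2 enzyme carries it on a cysteine, and an E3 ligase brings the loaded E2 to the protein to be marked. The E2 largely decides which ubiquitin chain is built, and a few E2 enzymes carry ubiquitin-like proteins (SUMO, NEDD8 and ISG15) instead. Red cell precursors depend on this relay late in their life, when most proteins other than hemoglobin are cleared. UBE2O and UBE2H are among the E2 enzymes known to accumulate during that maturation.

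Inferred depth was 18400000 to 35800000 read pairs per library. MEN1 was at 6.29, 6.44 and 6.88 TPM (a transcript level scaled for gene length and library size) under the MEN1 shRNA, against 41.2, 39.6 and 37.1 TPM in the controls, so 16.6% of the control level remained. All 10 erythroid identity markers were tested, with a summed level of 95633 to 107600 TPM under the MEN1 shRNA and 55432 to 61478 TPM in the controls. Globin genes make up most of both sums, so the sums say little about the other markers. Of the 10, 7 rose and none fell past an adjusted p of 0.05 in limma, beside 22.1% higher and 31.5% lower over all genes tested. Markers of other blood lineages were compared over whole lists. The 8 myeloid markers summed to 0.944 to 1.94 TPM under the MEN1 shRNA and 2.25 to 2.74 TPM in the controls, with S100A8 at 0 in all libraries. Megakaryocyte markers (7) summed to 16.7 to 21.5 against 31.8 to 36.7 TPM, with PF4 and PPBP at 0, and lymphoid markers (7) to 3.97 to 6.05 against 1.11 to 1.32 TPM, with MS4A1 at 0. Mast and basophil markers (7) were higher than these, at 778 to 941 TPM under the MEN1 shRNA and 1168 to 1385 TPM in the controls, with CLC at 0. In all libraries 7 of the 8 myeloid, 6 of the 7 megakaryocyte and 6 of the 7 lymphoid markers stayed under 1 TPM. The shifts of these sums thus largely follow single genes. LYZ went from 1.48 ± 0.198 to 0.198 ± 0.0619 TPM, ITGA2B from 33.8 ± 2.44 to 18.6 ± 2.35 TPM and CD3D from 0.397 ± 0.356 to 4.40 ± 1.24 TPM. Terminal erythroid genes rose in 15 of 20 cases and fell in 3 (median log2 fold change 0.86), led by GYPB (1.95) and SLC4A1 (1.93). Their summed level was 9519 to 10096 TPM under the MEN1 shRNA and 5042 to 5347 TPM in the controls. The part of these shifts in the E2 results below was not tested, and in bulk RNA fewer cells of a type and less RNA per cell cannot be told apart.

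The E2 genes moved in both directions and by modest amounts. Of the 32 tested, 22 passed the limma threshold (adjusted p under 0.05): 13 rose and 9 fell in the MEN1 shRNA libraries. Over all 14294 genes tested, 53.6% passed, 22.1% higher and 31.5% lower, so the share of E2 genes that passed (68.8%) lies in a transcriptome that changed widely. That background includes many genes of lower level than the E2 genes. With only genes at a mean TPM of 5 or more, 6345 of 10188 passed, and the E2 count stayed at 22. 6 of the 13 rises and 5 of the 9 falls also passed in each of the 14 alternative analyses. The rises that held were UBE2H, UBE2B, UBE2T, UBE2D3, UBE2F and UBE2C, and the falls UBE2N, UBE2E3, UBE2L6, UBE2L3 and UBE2M. The groups did not overlap in 24 of the 32 genes (75.0%, against 61.8% of all genes tested). With median-of-ratios scaling the split was 16 higher and 7 lower, as UBE2K, UBE2Q2 and UBE2V2 joined the rises and UBE2J1 and UBE2R2 left the falls. The count of 22 fell to 13 without MEN1 shRNA replicate 2, and the count of rises fell to 6, 8 and 7 without MEN1 shRNA replicate 2, MEN1 shRNA replicate 3 and control replicate 2.

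The typical E2 change was smaller than that over all genes tested. The median absolute log2 fold change was 0.27 over the 32 E2 genes and 0.37 over all genes tested, and among genes past the threshold it was 0.40 against 0.62. Here too the background includes many genes of lower level, and no such median was computed for genes of matched level. No E2 gene passed with a log2 fold change of 1 or more in limma, against 11.9% of all genes, while 23 of 32 had an unadjusted p under 0.05 (58.7% of all genes). UBE2H came nearest, at 0.996. Over the 14 alternative analyses its value ran from 0.94 to 1.08, past the threshold in each. Its absence from this count thus holds in the main analysis but not in every alternative. Summed over all 38 genes, E2 transcripts came to 2473, 2598 and 2553 TPM under the MEN1 shRNA and 2475, 2447 and 2491 TPM in the controls. The sums overlapped between the groups, with a ratio of means of 1.03 that became 1.09 with median-of-ratios scaling.

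**Figure D1:**
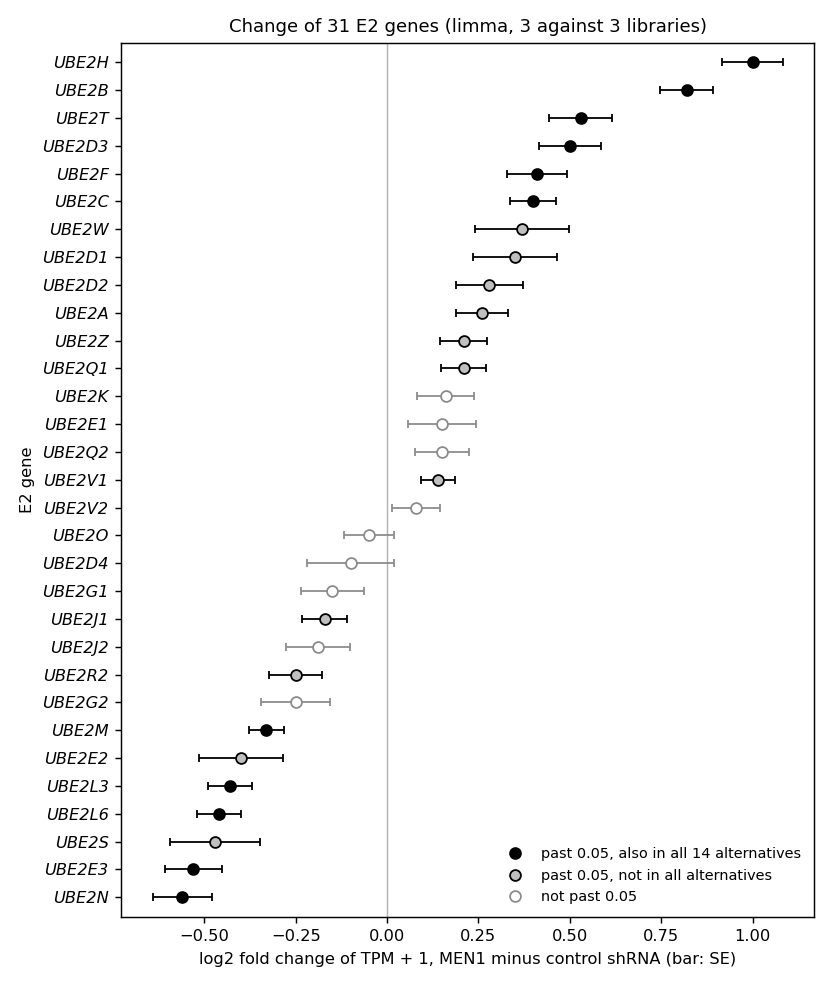
Log2 fold change of log2(TPM + 1) on the horizontal axis for 31 of the 32 tested E2 genes, MEN1 shRNA minus control shRNA, with bars of 1 SE from limma (3 against 3 libraries). Black points passed 0.05 also in all 14 alternatives, grey points passed only in the main analysis and some alternatives, and open points did not pass; values run from -0.56 for UBE2N to 1.00 for UBE2H.

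Levels differed far more between E2 genes than between the groups. In the control libraries UBE2M was the highest at 282 ± 3.34 TPM (SD, n = 3), followed by UBE2V1 at 227 ± 0.875 and UBE2D3 at 187 ± 12.9. UBE2S (148 ± 23.0 TPM) and UBE2G2 (147 ± 17.7 TPM) came next and did not differ beyond their spread. The lowest tested were UBE2D4, UBE2D1 and UBE2W at 7.44 ± 0.806, 6.02 ± 0.805 and 4.72 ± 0.452 TPM. UBE2M, UBE2V1 and UBE2D3 together made up 28.2% ± 0.598 of summed E2 TPM in the controls and 29.1% ± 0.0869 with the MEN1 shRNA. Within this sum the share of UBE2M went from 11.4% ± 0.0634 to 8.80% ± 0.365 and that of UBE2D3 from 7.58% ± 0.574 to 10.4% ± 0.713, so that UBE2D3 stood above UBE2M in each MEN1 shRNA library and below it in each control library.

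**Figure D2:**
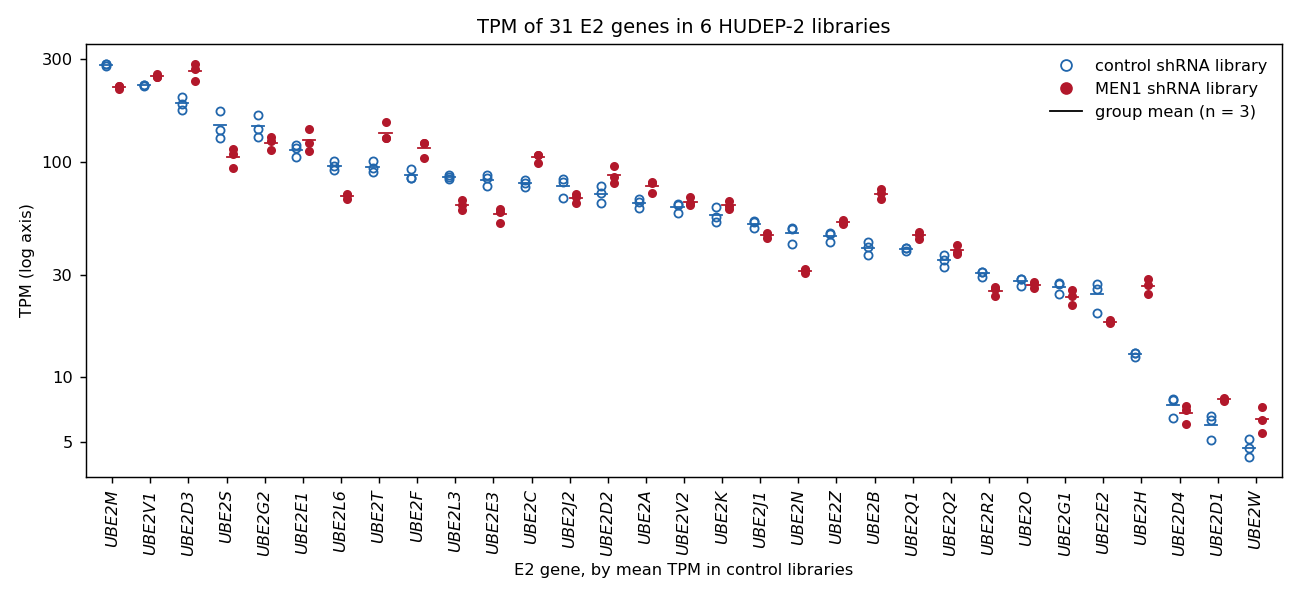
TPM of 31 of the 32 tested E2 genes on a log axis in each of the 6 libraries, ordered by the control mean; open blue circles are control libraries, filled red circles MEN1 shRNA libraries, and short lines the group means (n = 3). Levels span from 4.72 TPM for UBE2W to 282 TPM for UBE2M in the controls, and UBE2H and UBE2B show the widest gaps between groups.

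Promoter sequence was examined for 4 motifs because several E2 genes are known as cell-cycle genes and the cells are erythroid. RefSeq promoter windows on GRCh38.p14, from 250 bases before to 50 bases after a gene's start, were matched by symbol for 25 of the 32 genes. A single window was kept per gene. UBE2B, UBE2C, UBE2H, UBE2Q1, UBE2V2 and UBE2W were among those with no entry. Both strands were searched for AGATAA or TGATAA (bound by GATA factors), TTTGAA (part of the cell-cycle CHR element), CCAAT (bound by NF-Y) and CACCC (bound by KLF factors), of which CACCC and CCAAT can share bases. A GATA motif was in 0 of the 25 windows and in 16.3% of 35116 RefSeq promoters. CCAAT was in 7 of the 25, 5 of the 8 rising genes, 2 of the 9 falling genes and 0 of the 8 others, and in 34.6% of all promoters. TTTGAA was in 2 of the 25, both of rising genes, and in 15.2% of all promoters, and CACCC was in 18 of the 25 and 59.9% of all promoters. These are matches of letters and not shown binding sites. The windows of UBE2D2 and UBE2A lie far inside the spans given for these genes in the deposited tables. They begin at base 139561089 against 139526431 for UBE2D2, and at 119574313 against 119474802 for UBE2A.

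Of the 10 genes past the threshold with an absolute log2 fold change of 0.4 or more before rounding, 8 had a window, and the 5 of these with CCAAT are printed. They were picked for this motif, so they cannot show how risers and fallers differ in it. The windows left out, of UBE2N, UBE2L3 and UBE2L6, have no CCAAT, and all of these genes fell. Each line is the 250 bases before the start, 5′ to 3′ on the gene's strand, with CCAAT (or its reverse complement ATTGG) and TTTGAA in capitals. UBE2T, UBE2D3 and UBE2F rose, and UBE2S and UBE2E3 fell.
UBE2T: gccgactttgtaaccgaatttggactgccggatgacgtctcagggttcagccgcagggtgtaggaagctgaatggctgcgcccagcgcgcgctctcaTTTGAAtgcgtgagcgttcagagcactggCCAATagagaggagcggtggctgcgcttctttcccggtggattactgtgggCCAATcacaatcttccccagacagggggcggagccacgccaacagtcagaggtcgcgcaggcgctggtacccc
UBE2D3: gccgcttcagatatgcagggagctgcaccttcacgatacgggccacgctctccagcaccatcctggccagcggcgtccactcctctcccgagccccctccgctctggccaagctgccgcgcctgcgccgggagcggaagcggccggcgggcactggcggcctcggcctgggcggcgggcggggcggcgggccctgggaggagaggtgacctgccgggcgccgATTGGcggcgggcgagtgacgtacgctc
UBE2F: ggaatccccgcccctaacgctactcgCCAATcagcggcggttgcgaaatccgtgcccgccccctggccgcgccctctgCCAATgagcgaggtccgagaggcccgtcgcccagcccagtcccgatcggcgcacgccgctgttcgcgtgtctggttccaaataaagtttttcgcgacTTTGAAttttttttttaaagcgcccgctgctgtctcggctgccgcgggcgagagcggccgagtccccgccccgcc
UBE2S: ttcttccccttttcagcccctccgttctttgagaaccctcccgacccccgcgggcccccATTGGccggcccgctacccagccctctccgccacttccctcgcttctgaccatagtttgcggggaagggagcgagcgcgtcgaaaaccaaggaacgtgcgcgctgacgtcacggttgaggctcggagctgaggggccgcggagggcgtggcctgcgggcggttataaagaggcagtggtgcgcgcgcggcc
UBE2E3: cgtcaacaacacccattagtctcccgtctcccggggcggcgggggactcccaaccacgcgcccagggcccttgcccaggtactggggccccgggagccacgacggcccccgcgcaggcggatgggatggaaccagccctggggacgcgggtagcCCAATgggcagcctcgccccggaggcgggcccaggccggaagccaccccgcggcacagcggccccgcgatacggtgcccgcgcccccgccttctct
They lie at chr1:202341937-202342186 (minus strand), chr4:102868896-102869145 (minus strand), chr2:237966764-237967013 (plus strand), chr19:55407789-55408038 (minus strand) and chr2:180980110-180980359 (plus strand). The UBE2T window has CCAAT at 124 and 73 bases before the start and TTTGAA at 153, and UBE2F has CCAAT at 224 and 172 and TTTGAA at 75. UBE2D3 has 1 CCAAT match at 28 bases, UBE2S 1 at 191 and UBE2E3 1 at 96. The RefSeq start of UBE2E3 lies 13112 bases inside the span given in the deposited tables, and the other 4 lie within 187 bases of the deposited start.

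UBE2H and UBE2O are the E2 enzymes most tied to red cell maturation. UBE2H (ENSG00000186591, chromosome 7, 129830732 to 129952960, minus strand) pairs with the CTLH ligase, a multi-subunit complex needed for erythroblast maturation. UBE2H reached 24.4, 26.9 and 28.6 TPM under the MEN1 shRNA (replicates 1, 2 and 3, the order used throughout) against 12.5, 13.0 and 13.0 TPM in the controls. The lowest MEN1 shRNA value was well above the highest control, and UBE2H had the largest change of the family (ratio of means 2.08, log2 fold change 1.00, SE 0.0833, adjusted p 8.0e-05). UBE2O (chromosome 17, 76389456 to 76453152, minus strand), a large enzyme that acts as E2 and E3 in one and marks ribosomal and unassembled globin proteins in reticulocytes, was at 27.6, 27.0 and 25.9 TPM under the MEN1 shRNA and 26.5, 28.6 and 28.5 TPM in the controls. These values overlapped (log2 fold change -0.05, SE 0.069, adjusted p 0.55), and the sign turned with median-of-ratios scaling (0.03). The difference between the responses of UBE2H and UBE2O was not tested.

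Subunits of the CTLH ligase were compared beside UBE2H. 7 of 11 rose and 1 fell, with a median log2 fold change of 0.19 against -0.07 over all genes. For this and every other list, the counts stand beside 22.1% higher and 31.5% lower over all genes tested. No list was tested as a set. YPEL5, a regulatory subunit, went from 26.8 ± 0.872 to 52.9 ± 2.40 TPM (adjusted p 4.2e-05, log2 fold change 0.96). WDR26, a substrate-receptor subunit, went from 42.5 ± 2.46 to 64.8 ± 3.35 TPM (0.60), and MKLN1, or muskelin, from 19.6 ± 1.08 to 28.6 ± 2.63 TPM (0.52). RMND5A, one of the RING subunits that contact the E2, fell from 27.2 ± 1.93 to 18.6 ± 1.04 TPM (-0.52). Terminal erythroid genes rose in the same libraries, as given above.

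In the RAD6 pair, UBE2B had the second largest rise of the family and UBE2A a smaller one. UBE2A and UBE2B encode 2 near-identical enzymes that work with RAD18 on stalled replication forks and with RNF20 and RNF40 on histone H2B. UBE2B (ENSG00000119048, chromosome 5, 134371184 to 134392108, plus strand) was at 67.5, 74.6 and 71.9 TPM under the MEN1 shRNA and 40.4, 42.3 and 37.2 TPM in the controls. The groups were well apart (log2 fold change 0.82, SE 0.0727, adjusted p 9.7e-05). UBE2A rose less, from 64.6 ± 3.08 to 77.6 ± 4.97 TPM (adjusted p 0.0162, log2 fold change 0.26). In the control libraries UBE2B stood at 0.660, 0.648 and 0.553 times UBE2A, and in the MEN1 shRNA libraries at 0.939, 0.933 and 0.889 times. None of the distinct windows of read length of the annotated transcripts of either gene occurs in another gene's transcript on the same strand, while 14.1% of those of UBE2A lie opposite NKRF, which fell (log2 fold change -0.46).

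UBE2N moved the other way. It builds lysine-63-linked chains, which signal rather than mark for degradation, and does so only with a partner that lacks the catalytic cysteine, UBE2V1 or UBE2V2. UBE2N (ENSG00000177889, chromosome 12, 93405673 to 93441947, minus strand) was at 31.6, 30.4 and 31.7 TPM under the MEN1 shRNA and 41.8, 49.1 and 49.4 TPM in the controls, the largest fall of the family (log2 fold change -0.56, SE 0.0812, adjusted p 8.3e-04). UBE2V1 was higher, at 250 ± 4.04 against 227 ± 0.875 TPM (adjusted p 0.0407, log2 fold change 0.14), a call that held in 6 of 14 alternatives. UBE2V2 did not pass (65.5 ± 2.89 against 61.7 ± 3.03 TPM, adjusted p 0.311). The UBE2N gene overlaps NUDT4 on the opposite strand over 33.9% of its read-length windows, and NUDT4 rose from 35.7 ± 1.80 to 80.0 ± 7.61 TPM. Libraries were strand-specific, but whether strand was used in the quantification is not given in the sources used here, and the part of NUDT4 in the UBE2N values was not tested.

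Among 11 ligase partners of the RAD6 and UBE2N enzymes, 2 rose and 3 fell, beside 22.1% higher and 31.5% lower over all genes tested. SHPRH, a ligase for lysine-63 chains on PCNA, fell from 18.5 ± 0.254 to 11.1 ± 0.870 TPM (log2 fold change -0.69), and RAD18 fell from 22.4 ± 1.77 to 16.6 ± 1.31 TPM (-0.42). The H2B ligase subunits parted, with RNF20 up from 36.1 ± 2.30 to 50.4 ± 1.91 TPM (0.47) and RNF40 down from 83.0 ± 8.90 to 64.8 ± 2.75 TPM (-0.35).

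The mitotic pair parted as well. UBE2C places the first ubiquitin on substrates of the anaphase-promoting complex (APC/C), and UBE2S extends the chain. UBE2C (ENSG00000175063, chromosome 20, 45812576 to 45816957, plus strand) was at 99.0, 108 and 108 TPM under the MEN1 shRNA and 76.2, 79.9 and 82.5 TPM in the controls, with no overlap (log2 fold change 0.40, SE 0.0628, adjusted p 0.00132). UBE2S (ENSG00000108106, chromosome 19, 55399745 to 55407788, minus strand) was at 109, 93.3 and 115 TPM under the MEN1 shRNA and 173, 140 and 129 TPM in the controls. Control replicate 1 stood highest, and the groups did not overlap (log2 fold change -0.47, SE 0.123, adjusted p 0.0137). Without the filter on low genes the adjusted p of UBE2S was 0.0599. The processed copies UBE2SP1 and UBE2SP2 share 1.60% and 2.2% of its read-length windows, and with both added the level was 118 ± 12.0 against 165 ± 24.3 TPM.

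Of 17 APC/C subunits and regulators, 3 rose and 5 fell (median -0.08), beside 22.1% higher and 31.5% lower over all genes tested. ANAPC1, the largest scaffold subunit, fell from 60.7 ± 2.99 to 24.4 ± 4.5 TPM (adjusted p 1.2e-04, log2 fold change -1.30), followed by ANAPC15 (-0.80), ANAPC10 (-0.78) and CDC16 (-0.63). Of 15 proliferation genes measured beside them, 8 rose and none fell past the threshold (median 0.14), led by CDK1 (0.67) and CENPF (0.55), and their summed level was 3431 to 3522 TPM under the MEN1 shRNA and 2929 to 3021 TPM in the controls. Their part in the UBE2C and UBE2T values was not tested.

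UBE2T loads the Fanconi anemia ligase FANCL, which marks FANCD2 and FANCI when DNA strands are crosslinked. UBE2T (ENSG00000077152, chromosome 1, 202331544 to 202341984, minus strand) was at 129, 154 and 129 TPM under the MEN1 shRNA and 90.0, 101 and 93.6 TPM in the controls. MEN1 shRNA replicate 2 was the highest, and the groups were apart (log2 fold change 0.53, SE 0.0862, adjusted p 0.00150). Of 13 Fanconi genes, 2 rose and 5 fell (median -0.24), beside 22.1% higher and 31.5% lower over all genes tested. FANCE fell from 22.4 ± 0.916 to 12.6 ± 1.99 TPM (-0.79), FANCM by 0.54, FANCF by 0.48 and FANCB by 0.38 on the log2 scale.

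UBE2D1 to UBE2D4 encode closely related enzymes that serve a wide range of ligases. UBE2D3 (ENSG00000109332, chromosome 4, 102794383 to 102868896, minus strand) is the main form here and was at 238, 286 and 271 TPM under the MEN1 shRNA against 175, 201 and 186 TPM in the controls. All 3 MEN1 shRNA values were above the controls (log2 fold change 0.50, SE 0.0842, adjusted p 0.00178). UBE2D2 rose from 71.2 ± 6.26 to 86.9 ± 7.86 TPM (adjusted p 0.0311, log2 fold change 0.28) and UBE2D1 from 6.02 ± 0.805 to 7.91 ± 0.145 TPM (0.35, adjusted p 0.0341), calls that held in 8 and 7 of 14 alternatives. UBE2D4 did not pass (6.85 ± 0.687 against 7.44 ± 0.806 TPM, adjusted p 0.498). Summed over the 4 genes the level was 338, 397 and 365 TPM under the MEN1 shRNA and 265, 286 and 265 TPM in the controls, a ratio of 1.35 with no overlap. No read-length window is shared among the transcripts of these 4 genes.

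The UBE2E enzymes, a sister group with an added N-terminal stretch, did not follow. UBE2E3 (ENSG00000170035, chromosome 2, 180967248 to 181076585, plus strand) was at 60.6, 58.5 and 52.3 TPM under the MEN1 shRNA and 77.5, 84.2 and 86.7 TPM in the controls, again with no overlap (log2 fold change -0.53, SE 0.0771, adjusted p 8.7e-04). UBE2E2 fell from 24.3 ± 3.77 to 18.1 ± 0.305 TPM (-0.40, adjusted p 0.0211), with control replicate 1 at 20.0 TPM near the MEN1 shRNA values, a call held in 9 of 14 alternatives. UBE2E1 did not pass (126 ± 14.5 against 114 ± 7.75 TPM, adjusted p 0.226). UBE2W, which attaches ubiquitin to protein N-termini, went from 4.72 ± 0.452 to 6.41 ± 0.875 TPM (0.37, adjusted p 0.0421), a call held in 8 of 14. UBE2K, which builds lysine-48 chains, did not pass (63.2 ± 2.61 against 56.7 ± 4.85 TPM, adjusted p 0.126).

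Among the E2 enzymes of ubiquitin-like proteins, those of NEDD8 diverged. UBE2M and UBE2F both carry NEDD8 to cullins, UBE2M to those with RBX1 and UBE2F to CUL5 with RNF7. UBE2M (ENSG00000130725, chromosome 19, 58555712 to 58558954, minus strand) was at 226, 219 and 226 TPM under the MEN1 shRNA and 284, 278 and 284 TPM in the controls, a small fall with little spread (log2 fold change -0.33, SE 0.0476, adjusted p 7.8e-04). UBE2F (ENSG00000184182, chromosome 2, 237966827 to 238042782, plus strand) rose, with 104, 122 and 123 TPM against 84.0, 84.7 and 93.2 TPM (log2 fold change 0.41, SE 0.0824, adjusted p 0.00418). The read-through row UBE2F-SCLY, which overlaps it, stayed under 1 TPM in each library. Of 13 cullin and neddylation genes, 4 rose and 2 fell, beside 22.1% higher and 31.5% lower over all genes tested. DCUN1D1 (log2 fold change 0.79) and DCUN1D3 (0.66), which help to attach NEDD8, and CUL5 (0.44) were among the rises, and CUL4A (-0.40) among the falls.

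SUMO ligases, which speed the transfer of SUMO to its targets, changed in both directions. Of 8 tested, 2 rose and 4 fell, with ZNF451 up from 76.1 ± 3.99 to 146 ± 12.0 TPM (0.92), NSMCE2 up (0.48), and PIAS4 (-0.66) and PIAS3 (-0.54) down.

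UBE2L6 and UBE2L3 fell together. UBE2L6 is the E2 for ISG15, an interferon-induced ubiquitin-like protein, and UBE2L3 serves the RBR ligases, among them the linear-chain complex. UBE2L6 (ENSG00000156587, chromosome 11, 57551656 to 57568284, minus strand) was at 71.2, 67.3 and 70.1 TPM under the MEN1 shRNA and 101, 91.4 and 95.5 TPM in the controls (log2 fold change -0.46, SE 0.0602, adjusted p 5.4e-04). UBE2L3 (ENSG00000185651, chromosome 22, 21549447 to 21624034, plus strand) was at 60.0, 63.4 and 66.6 TPM against 87.4, 83.8 and 85.5 TPM (log2 fold change -0.43, SE 0.0607, adjusted p 7.6e-04). In both genes each MEN1 shRNA library lay below each control. Of 6 genes of the ISG15 system, HERC5, the main ISG15 ligase, rose from 9.90 ± 1.78 to 38.9 ± 7.48 TPM (1.87), TRIM25 rose (0.27), and USP18, which removes ISG15, fell from 3.94 ± 0.194 to 1.18 ± 0.338 TPM (-1.19). Of 11 RBR ligases tested, 2 rose and 3 fell, with RNF144A (0.76), RNF19A (0.54), RNF144B (-0.74) and SHARPIN (-0.43) as the largest changes.

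Differences were small among the E2 enzymes of endoplasmic reticulum (ER) quality control. UBE2J1 and UBE2J2 are anchored in the ER membrane, and UBE2G1 and UBE2G2 work with ligases there or with cullins. UBE2J1 was at 45.7 ± 1.22 against 51.7 ± 2.06 TPM (adjusted p 0.0457, log2 fold change -0.17), and only 2 of 14 alternatives kept the call. UBE2J2 (-0.19, adjusted p 0.112), UBE2G1 (-0.15, adjusted p 0.196) and UBE2G2 (-0.25, adjusted p 0.0577) did not pass, although the UBE2G2 groups did not overlap (114 to 130 against 131 to 166 TPM). Of 11 ligases and partner proteins of ER-associated degradation, 4 rose and 2 fell (median 0.14), beside 22.1% higher and 31.5% lower over all genes tested. HERPUD1, a stress-induced ER protein, went up from 17.3 ± 1.53 to 70.8 ± 11.2 TPM (1.96), DERL3 (-1.01) down and DERL2 (0.36) up. The genes named here are partner proteins and not ligases.

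The remaining named E2 genes changed by small amounts, and all but UBE2Q2 passed the threshold. UBE2R2, which builds lysine-48 chains on substrates of cullin ligases, fell from 30.4 ± 1.05 to 25.3 ± 1.38 TPM (adjusted p 0.0193, log2 fold change -0.25). This call held in 9 of 14 alternatives and was lost with median-of-ratios scaling among others. UBE2Z, which is loaded only by UBA6, rose from 45.2 ± 2.48 to 52.6 ± 1.11 TPM (0.21, adjusted p 0.0247). UBE2Q1 rose from 39.4 ± 0.614 to 45.7 ± 1.89 TPM (0.21, adjusted p 0.0223), and UBE2Q2 did not pass (38.9 ± 1.86 against 34.9 ± 2.18 TPM, adjusted p 0.118). With 2 rows named UBE2Q2P2 added, the UBE2Q2 level was 44.3 ± 0.629 under the MEN1 shRNA against 44.2 ± 3.33 TPM in the controls. UBE2Z and UBE2Q1 passed in 10 and 9 of 14 alternatives.

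The genes that feed the E2 enzymes were taken next. Of 10 E1 genes, 4 fell and none rose past the threshold (median -0.05), and UBA1, which loads most E2 enzymes and was named after its values were seen, did not pass (205 ± 2.56 against 214 ± 2.67 TPM, adjusted p 0.336). UBA6 fell from 30.4 ± 1.69 to 18.3 ± 0.777 TPM (adjusted p 2.1e-04, log2 fold change -0.70), NAE1, a subunit of the NEDD8 E1, from 118 ± 3.86 to 81.3 ± 9.66 TPM (-0.54), and MOCS3 from 7.05 ± 0.339 to 4.55 ± 0.208 TPM (-0.54). Among 13 precursors of ubiquitin and its relatives, 3 rose and 4 fell. URM1 fell from 58.9 ± 1.16 to 38.4 ± 2.52 TPM (-0.60) and UFM1 from 33.8 ± 2.27 to 25.7 ± 0.807 TPM (-0.38), while SUMO3 rose from 294 ± 10.3 to 443 ± 15.3 TPM (0.59). Of 8 E2 and E2-like genes outside the name rule, 3 rose and 1 fell: AKTIP (1.05, from 1.33 ± 0.362 to 3.82 ± 0.753 TPM), TSG101 (0.57) and UEVLD (0.52) rose, all 3 of them variants without the catalytic cysteine, and the giant E2 and E3 fusion BIRC6 fell (-0.24).

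**Figure D3:**
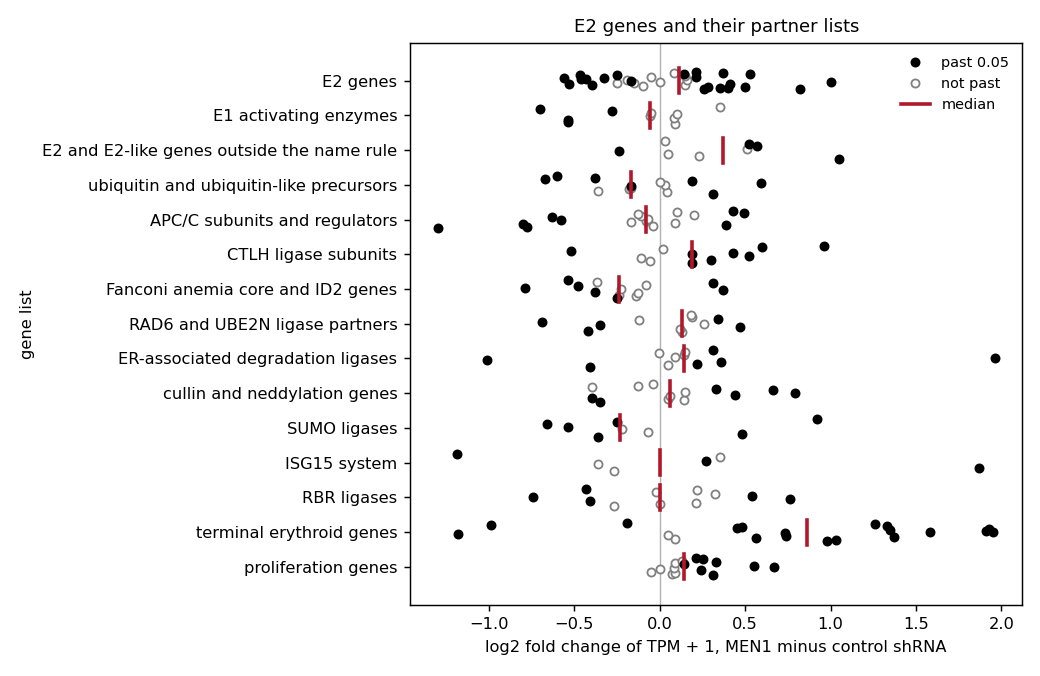
Log2 fold change of log2(TPM + 1), MEN1 shRNA minus control shRNA, for the 32 E2 genes (top row) and for the genes of 14 other lists; filled points passed an adjusted p of 0.05 in limma, open points did not, and red bars are list medians. Over the 14 lists 95 of 164 distinct genes tested passed (57.9%), and the terminal erythroid list has the median furthest from 0 at 0.86.

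Ratios within a library compare E2 genes of related role without any scaling between libraries. Of 14 pairs examined, the groups did not overlap in 7. No such share was computed for pairs of other genes, and among single genes 61.8% of all tested did not overlap. Some of the 7 pairs share a gene (UBE2N or UBE2E1), and the ratios restate the single-gene values above. UBE2C stood at 0.440, 0.571 and 0.638 times UBE2S in the controls and at 0.906, 1.15 and 0.942 times with the MEN1 shRNA, a mean ratio 1.82 times as high. For UBE2F over UBE2M the ratios were 0.295, 0.304 and 0.329 in the controls and 0.460, 0.557 and 0.546 under the MEN1 shRNA. UBE2V1 over UBE2N went from 4.89 ± 0.488 to 8.01 ± 0.172, and UBE2V2 over UBE2N from 1.32 ± 0.0604 to 2.10 ± 0.0899. UBE2E1 stood at 1.38 ± 0.154 times UBE2E3 in the controls and 2.21 ± 0.198 times with the MEN1 shRNA, and at 4.79 ± 1.09 and 7.00 ± 0.880 times UBE2E2. The other pairs overlapped: UBE2L3 over UBE2L6 (0.911 ± 0.0588 against 0.894 ± 0.0239), UBE2J1 over UBE2J2 (0.674 ± 0.0467 against 0.671 ± 0.0872), UBE2V1 over UBE2V2, UBE2G1 over UBE2G2, UBE2Q1 over UBE2Q2, UBE2D3 over UBE2D2 and UBE2R2 over CDC34. The pairs were chosen with the single-gene values known, so their ratios are given without a test.

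**Figure D4:**
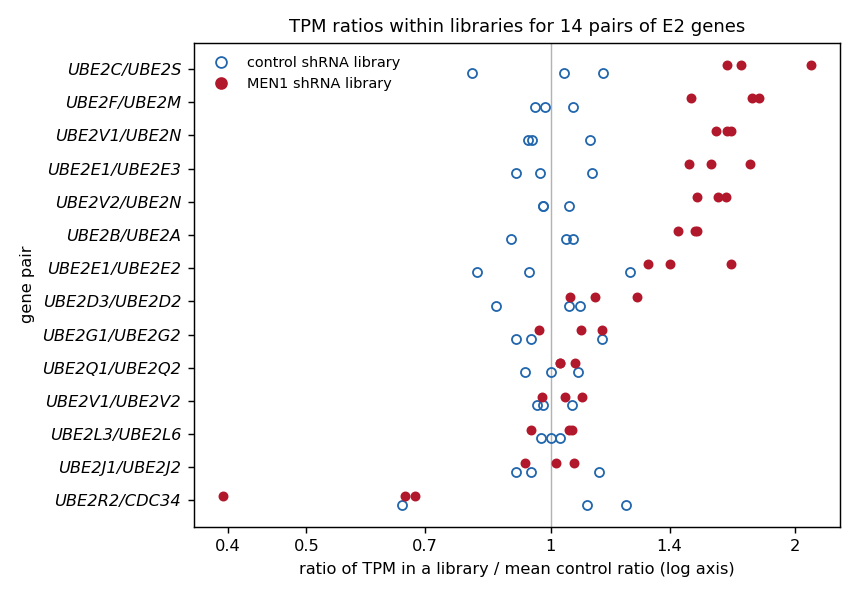
Ratio of TPM between 2 E2 genes in each library, divided by the mean control ratio of that pair, on a log axis; open blue circles are control libraries and filled red circles MEN1 shRNA libraries. The 7 pairs at the top do not overlap between groups, led by UBE2C over UBE2S (1.82 times the control mean), and the other 7 do.

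Of the 22 calls, 10 missed the threshold in at least 1 of the 6 fits that each left out 1 library. UBE2V1 (adjusted p 0.0659 to 0.103) and UBE2J1 (0.051 to 0.131) missed the threshold whichever of the 6 libraries was left out. UBE2W missed it without MEN1 shRNA replicate 1 or 2 or any 1 control (0.0531 to 0.137), and UBE2D1 without any 1 MEN1 shRNA library or control replicate 1 or 2 (0.0524 to 0.1). UBE2D2 missed it without MEN1 shRNA replicate 1 or 2 or control replicate 2 or 3 (0.0535 to 0.0997), and UBE2A without MEN1 shRNA replicate 2 or 3 or control replicate 1 (0.0541 to 0.057). UBE2Z missed it without MEN1 shRNA replicate 2 or 3 or control replicate 2 (0.0515 to 0.0818), and UBE2Q1 without the same libraries or control replicate 3 (0.0553 to 0.0787). UBE2E2 missed it without MEN1 shRNA replicate 2 or 3 or control replicate 2 or 3 (0.0533 to 0.0717), and UBE2R2 without control replicate 1 or 2 (0.0578 to 0.0616). In the other direction, UBE2J2 (adjusted p 0.0214) and UBE2G2 (0.0282) passed without control replicate 2, and UBE2K (0.0479) without control replicate 3. All 10 kept the sign of their change in these fits.

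The remaining 6 genes of the name rule did not reach 1 TPM in any library and were not tested. UBE2U, UBE2QL1 and the processed pseudogene UBE2L2 were listed at 0 in all 6 libraries. UBE2L5 reached at most 0.874 TPM, the pseudogene UBE2L4 at most 0.990 and UBE2NL at most 0.138. Of the tested genes, 4 share read-length windows with another gene on the same strand: UBE2V1 shares 31.6% with its read-through form, which was listed at 0 in each library under the name PEDS1-UBE2V1, UBE2F 4.94%, UBE2S 3.80% and UBE2W 3.49%. UBE2S also lies opposite RPL28, which fell from 1297 ± 57.3 to 1068 ± 96.6 TPM (log2 fold change -0.28, limma adjusted p 0.0173). The part of RPL28 in the UBE2S values was not tested.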

How the data were processed

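Poly(A) RNA of 6 HUDEP-2 cultures was sequenced from strand-specific libraries, per the labels' protocols. The submitters' processing notes name FastQC, Trimmomatic, STAR 2.7.1a, Picard 2.20.4, StringTie 2.0.4 and the hg38 build, without roles. Annotation and strand setting: not given in the sources used here. The deposited TPM is scaled for length and library size, and the deposited FPKM for length and fragments, per the file headers. The deposited coverage is a signal per base with no depth scaling, per the file headers. In 1 library, 3 values just under 0 in the deposited TPM and coverage were set to 0. Of 58261 identifiers shared with GENCODE v29, 99.9% overlap their position there.

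Depth was inferred from the ratio of coverage to FPKM, taken as total aligned bases, with 302 bases per read pair. No read counts were used. The 14294 genes that reached 1 TPM in 3 or more libraries were transformed to log2(TPM + 1), so that fold changes of low genes are understated. The model was limma (version 3.58.1, R version 4.3.3), with variances moderated along their trend with mean level. P-values are 2-sided, adjusted by Benjamini and Hochberg's method across these genes, and called under 0.05. Errors are SD over 3 libraries. The step was tested on simulated data with 200 changed genes among the 14294. So few changed genes cannot show how the calls behave where 53.6% of genes pass, as in these data. Alternatives were FPKM, a pseudocount of 0.1, no filter, a mean TPM of 5 or more, median-of-ratios scaling, TPM rescaled without globin and mitochondrial genes, no trend, the replicate number as a block and each library left out, 14 in all. Sequence matching, sums and figures used Python 3.11.15, pandas 2.3.3, NumPy 2.4.6 and matplotlib 3.10.9. Read-length windows are exact 151-base matches between GENCODE v29 transcripts.

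The genes, lists and tests were chosen with earlier results of these data known. Of the 32 tested E2 genes, 31 are named; the other one and some list genes entered the fits and counts but are not reported here. Up to 4 genes are named from each other list, those called with the largest absolute log2 fold change; exceptions are stated.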

Additional observations from a re-analysis of the deposited data

How the results depend on the processing

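Of 434 comparisons of a named E2 gene with an alternative, 361 kept direction and side of the threshold, 62 fell short of it, 9 passed newly and 2 changed sign. The sign changes were those of UBE2O, at 0.03 (median-of-ratios scaling) and 0.01 (globin and mitochondrial genes removed before TPM was rescaled), and UBE2O passed in no alternative. Leaving out each library gave 13 to 17 E2 genes past the threshold, 6 to 10 higher and 7 to 8 lower, with 6577 to 7542 genes past it over all genes, 2639 to 3130 higher and 3847 to 4412 lower, 82 to 92 genes of the other lists, and a ratio of summed E2 TPM of 1.02 to 1.04. These fits have fewer libraries by construction. The ratio of summed E2 TPM was 1.03, but 1.09 under median-of-ratios scaling and 1.08 where globin and mitochondrial genes were removed, and the median log2 fold change over all genes was -0.07, 0.0078 and -0.011 in turn. Deviations of same-numbered libraries correlated at 0.0171, -0.0265 and -0.0124, and 2 of 6 libraries correlated best with their own number, so the numbers were not taken as pairs. With the replicate block 17 E2 genes passed, 9 higher and 8 lower, and 7012 of all genes. UBE2W, UBE2D1 and UBE2D4 have the fewest reads of the tested genes per unit of length, all under 10 TPM.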
